A study of Mus musculus with 4 samples.

Results

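Divergent coding gene promoters are stretches of genome at which a gene on the minus strand and a gene on the plus strand start close together and are read away from each other. The pairs described here were 735 autosomal pairs of protein-coding genes in the GENCODE vM21 basic annotation whose annotated gene 5′ ends face away from each other and lie at most 1000 bp apart. They hold 1450 of the 20807 autosomal coding genes, 20 of them in 2 pairs, and fall into 714 separate loci. The region of a pair ran from 1 kb outside the 5′ end of the minus-strand gene to 1 kb outside that of the plus-strand gene. They are set against 14338 single promoters, the coding genes outside the pairs with no other coding or long non-coding RNA (lncRNA) 5′ end within 5 kb, each taken as 1 kb on either side of its 5′ end.

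Chromatin immunoprecipitation and sequencing (ChIP-seq) of acetylated lysine 27 on histone H3 (H3K27ac) was done on left cerebral cortex. The mice were adult females, 2 months old, of B6CASTF1/J, the first-generation hybrids of C57BL/6J and CAST/EiJ. The labels give 4 libraries in 1 group: pool I and pool J, each pooled from 4 biosamples and sequenced as 2 technical libraries. There was no treated, mutant or second-tissue group, so no contrast between conditions could be made, and values exist per pool, not per animal.

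H3K27ac lies on the nucleosomes beside active promoters and enhancers, while the DNA at the start site itself is often kept free of nucleosomes. In mammals divergent pairs are known for CpG islands, for a lack of TATA boxes and for genes that most cells use, such as those of DNA repair and of mitochondria. The stretch between the starts can serve both genes, and factors such as GABP, an ETS factor, are known to act there.

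The labelled tissue was checked against marker genes. Promoter peaks of the replicated list, which draws on both pools, were present at 8 of 8 markers of cortical neurons, at 3 of 3 of interneurons, at 3 of 3 of astrocytes, at 2 of 3 of oligodendrocytes, at 3 of 3 of microglia and at 2 of 2 of endothelial cells. None of the 5 markers of other tissues, among them Alb of liver and Krt5 of skin, had a promoter peak. The replicated list held 72027 peaks, of which 1029 lay at the divergent pairs. The pool I list held 69835 peaks and the pool J list 49839. Read numbers are not in the lists, and the depth is unknown.

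The sequence between the 5′ ends is short at most pairs. The distance ran from 0 to 987 bp, with a median of 128 bp and quartiles of 66 and 240 bp. The stretches of 8 named pairs are shown, 5 of them because their pairs are among the 10 of highest signal and 3 because they are well-known divergent pairs with a weaker peak or, at Col4a4/Col4a3, none. They are read from the RefSeq genome of GRCm38.p6 on the plus strand, 5′ to 3′, so the minus-strand gene starts to the left of each and the plus-strand gene to its right. Capitals mark matches, on either strand, to the motif letters given further on, and in Hadha/Hadhb a YY1 match and a GC box overlap.
Tada3/Arpc4, chr6:113377884-113378114: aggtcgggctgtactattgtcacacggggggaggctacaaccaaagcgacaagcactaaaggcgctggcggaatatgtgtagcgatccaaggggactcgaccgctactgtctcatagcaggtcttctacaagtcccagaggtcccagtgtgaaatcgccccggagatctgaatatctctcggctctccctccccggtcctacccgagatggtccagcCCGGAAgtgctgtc
Pdap1/Bud31, chr5:145140239-145140361: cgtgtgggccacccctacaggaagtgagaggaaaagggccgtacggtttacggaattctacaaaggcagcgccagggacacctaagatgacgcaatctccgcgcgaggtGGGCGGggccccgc
Hadha/Hadhb, chr5:30155163-30155247: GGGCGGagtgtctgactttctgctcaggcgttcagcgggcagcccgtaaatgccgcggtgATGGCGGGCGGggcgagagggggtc
Hs2st1/Selenof, chr3:144570182-144570303: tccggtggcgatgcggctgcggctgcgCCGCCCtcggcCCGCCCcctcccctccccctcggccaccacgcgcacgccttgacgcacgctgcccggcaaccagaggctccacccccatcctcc
Brca1/Nbr1, chr11:101551956-101552148: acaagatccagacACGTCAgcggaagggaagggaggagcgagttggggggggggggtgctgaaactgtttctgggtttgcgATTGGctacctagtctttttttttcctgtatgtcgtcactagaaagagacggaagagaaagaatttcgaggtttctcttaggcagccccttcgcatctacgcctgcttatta
Mrps12/Sars2, chr7:28741821-28741991: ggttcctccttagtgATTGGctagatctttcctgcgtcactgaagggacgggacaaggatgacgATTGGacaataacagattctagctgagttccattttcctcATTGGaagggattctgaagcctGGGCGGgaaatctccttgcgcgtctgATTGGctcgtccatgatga
Recql4/Lrrc14, chr15:76710549-76710622: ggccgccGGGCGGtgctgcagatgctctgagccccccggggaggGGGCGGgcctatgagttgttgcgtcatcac
Col4a4/Col4a3, chr1:82586850-82586920: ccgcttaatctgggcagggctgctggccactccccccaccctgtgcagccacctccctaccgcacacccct

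Nearly all divergent pairs carried H3K27ac. At least 1 replicated peak overlapped 692 of the 735 regions, or 94.1% (exact Clopper-Pearson 95% interval 92.2% to 95.7%), against a background of 48.1% of the single promoters (47.3% to 48.9%) and 56.7% of all autosomal coding promoters. The single promoters included 1394 of olfactory and vomeronasal receptor genes, of which 8 had a peak, which lowers that background. Only 1 such receptor gene was in a pair. Taken gene by gene in equal windows of 2 kb, 1365 of the 1450 genes of the pairs, or 94.1%, had a peak. Coding genes that start opposite a lncRNA in the same way held an intermediate place, with 622 of 757 or 82.2%. Coding pairs 1001 to 5000 bp apart had a peak in 299 of 403 regions, or 74.2%, although their regions are longer. These intervals cover the counting of regions only, since regions of 1 list share their libraries, and no test was run on them.

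The pairs were far richer in CpG dinucleotides than single promoters. The centre was taken as the midpoint of a pair or the 5′ end of a single promoter. A promoter was called CpG-rich where the 1001 bp about its centre had an observed to expected CpG ratio of at least 0.6 and at least 50% G and C. That held for 618 pairs, or 84.1%, and for 5471 single promoters, or 38.2%. Among CpG-rich promoters 605 of 618 pairs had a peak, or 97.9% (96.4% to 98.9%), against a background of 88.4% of CpG-rich single promoters (87.5% to 89.2%). Among the others 87 of 117 pairs had one, or 74.4% (65.5% to 82.0%), and 23.2% of single promoters did (22.3% to 24.1%). The share with a peak was higher for the pairs in every bin of the CpG ratio. At ratios of 0.4 to 0.6 it was 88.2% of 76 pairs and 58.8% of 1949 single promoters, and at 0.8 or more it was 98.1% of 323 pairs and 93.2% of 2443. The lowest bin held only 12 pairs, of which 1 had a peak, and its interval spans the value of the single promoters. At wide pairs the window lies mostly between the 5′ ends, so pairs and single promoters were not scored on like sequence. Of pairs 1001 to 5000 bp apart, whose windows lie between the 5′ ends, only 3.72% were CpG-rich. The effect of the window's place on these comparisons was not tested.

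**Figure D1:**
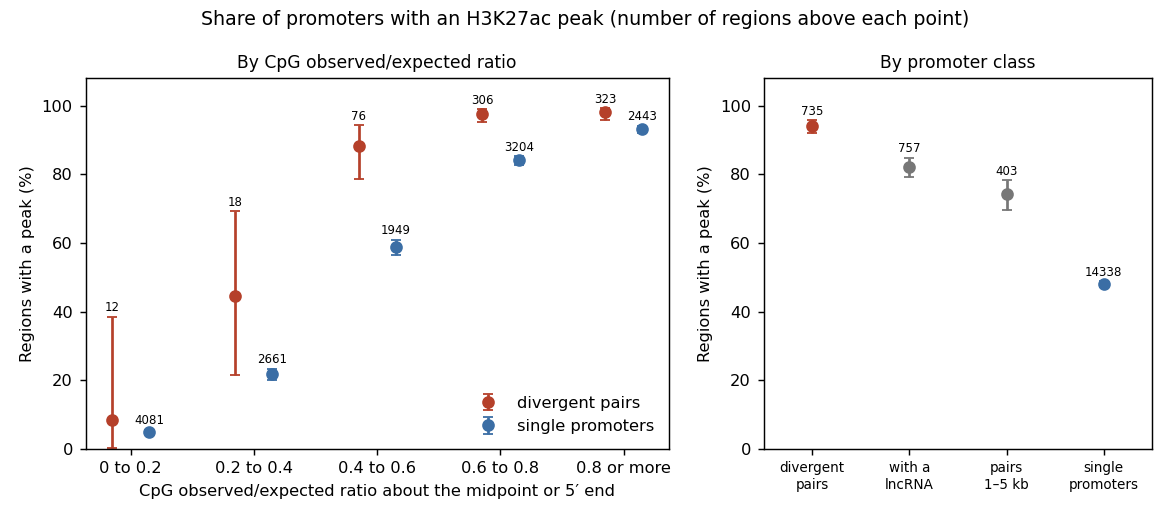
Share of promoters with a replicated H3K27ac peak, with exact 95% binomial intervals and the number of regions above each point. Left, divergent pairs (red) and single promoters (blue) by CpG observed to expected ratio, taken about the midpoint of a pair or the 5′ end of a single promoter. The pairs lie higher in each bin, by the most at ratios of 0.4 to 0.6 (88.2% against 58.8%). Right, all pairs (94.1%), coding genes with a divergent lncRNA (82.2%), coding pairs 1001 to 5000 bp apart (74.2%) and single promoters (48.1%).

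Signal, the value the authors' peak caller gave each peak, was somewhat higher at the pairs than at single promoters. The peaks of the pairs were somewhat narrower. The highest peak of a pair had a median signal of 9.51 (quartiles 6.86 and 12.9) over 692 pairs, against 8.36 (5.53 and 11.9) over 6895 single promoters. It lay in the top decile of the replicated list in 366 pairs, or 52.9%, against a background of 44.1%. Its median width was 1017 bp at the pairs and 1094 bp at single promoters. Coding genes with a divergent lncRNA had a median signal of 9.59, with 53.7% in the top decile. Coding pairs 1001 to 5000 bp apart had 9.95 and 56.9%, so the higher signal was not particular to the divergent pairs. The median widths of these classes were 1115.5 and 1247 bp. A peak of 2 kb or more was found at 83 of 692 pairs, against a background of 18.1%, and 1 of 4 kb or more at 5 pairs, or 0.723%, against 2.45%. With CpG-rich promoters alone the median signal was 9.88 at pairs and 9.06 at single promoters, and the median width 1026 and 1120 bp. The width difference was small in the pool I list, with 1199 bp at pairs and 1223 bp at single promoters, and larger in the pool J list, with 864.5 and 942 bp.

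The 2 pools gave much the same set of marked pairs. A peak stood in both pool lists at 672 pairs, or 91.4%, against a background of 44.3% of single promoters. Pool I alone had a peak at 17 pairs, pool J alone at 2, and neither at 44. Over the 672 pairs the signals of the pools ran together, with a Spearman rho of 0.893 and a Pearson r of 0.898 on the log2 scale. These are given as a description, since the pairs share the libraries of each pool. The signal of pool I was the higher at 633 of the 672 pairs, with a median of 11.4 in pool I and 8.16 in pool J, values of separately made lists.

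The strongest pair was Tada3/Arpc4, which joins a subunit of histone acetyltransferase complexes to a subunit of the actin-nucleating Arp2/3 complex. Its single peak had a signal of 35.2 in the replicated list, 40.1 in pool I and 30.1 in pool J. It covered both 5′ ends over 1732 bp, chr6:113377000-113378731, with its summit between them in both pools. Pdap1/Bud31, in which Bud31 encodes a spliceosome-associated protein, came next with 33.7, 37.1 in pool I and 29.3 in pool J. Rad17/Taf9, a checkpoint clamp loader subunit and a subunit of the general transcription factor TFIID, had 31.0, with 37.0 and 24.5 in pools I and J. Pole3/4933430I17Rik, where Pole3 encodes a histone-fold subunit of DNA polymerase epsilon, had 29.7, with 35.2 and 24.2. All of these 4 peaks had their summit between the 5′ ends in the replicated list and in each pool, a place that the highest peak took in only 65 of the 692 pairs. At Pdap1/Bud31 the summit lay 2 bp from the Pdap1 5′ end, and in pool I at that end itself, which was counted as between.

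Another 6 pairs completed the 10 of highest signal. Deaf1/Tmem80, with the transcription factor gene Deaf1, had 28.7, and Fam162a/Ccdc58 had 27.1. Brca1/Nbr1, the homologous recombination gene and a selective autophagy receptor gene, had 26.1. Hadha/Hadhb had 26.0; its genes encode the alpha and beta subunits of the mitochondrial trifunctional protein of fatty acid oxidation, so both partners of 1 complex start 86 bp apart. Hs2st1/Selenof, a heparan sulfate sulfotransferase gene and a selenoprotein gene, had 25.6. Cdc40/Wasf1, a splicing factor gene and the gene of the actin regulator WAVE1, had 24.9. In all 10 pairs the pool I value was higher than the pool J value, and the ranges of the pools over these pairs were 29.5 to 40.1 and 17.3 to 30.1.

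**Figure D2:**
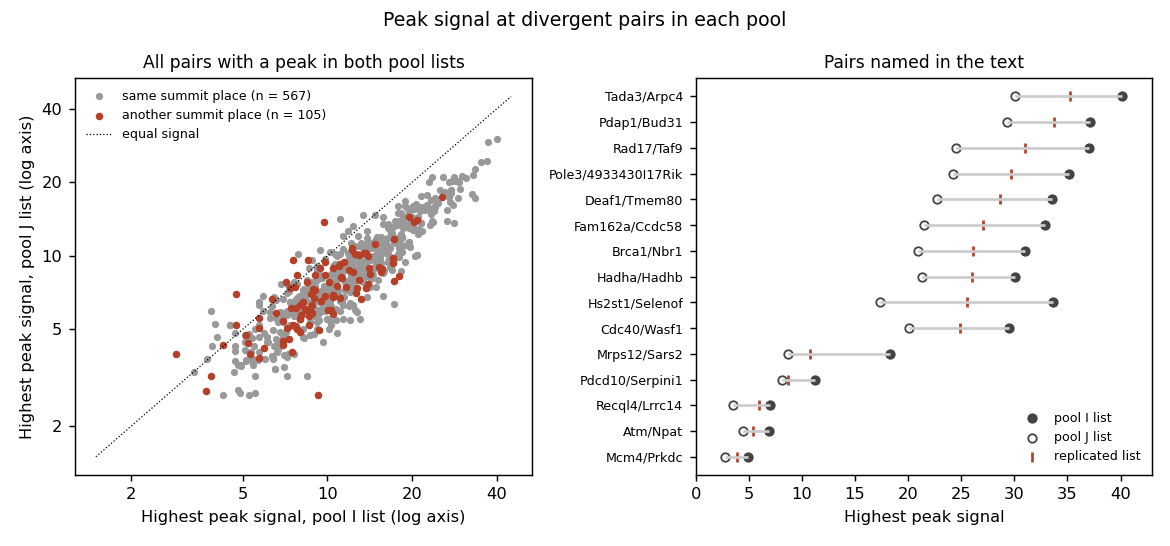
Signal of the highest peak at divergent pairs in each pool. Left, all 672 pairs with a peak in both pool lists on log axes, with pairs whose summits took another place in the other pool in red (105) and the line of equal signal dotted; 633 points lie below the line. Right, the 10 pairs of highest signal and 5 well-known pairs, with pool I filled, pool J open and the replicated list as a red tick; Tada3/Arpc4 is highest in both pools, with 40.1 and 30.1.

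Peaks at the pairs were often broken at the centre. At 266 pairs, or 38.4% of those with a peak, a peak lay on each side and none at the midpoint, against a background of 17.4% of single promoters with a peak, split at their own 5′ end. When the centre of a single promoter was moved upstream by 64 bp (the median distance of the pairs divided by 2) the share of single promoters was 20.9%. Split at their own 5′ end were 29.8% of the genes of the pairs. Among CpG-rich promoters the shares were 40.7% of pairs and 21.4% of single promoters. At least 2 peaks were found at 339 pairs, or 49.0%, and at 35.9% of single promoters with a peak.

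The peak-free stretch of a split pair had a median length of 184.5 bp (quartiles 139.25 and 249). Its centre lay at a median of 22.75 bp from the midpoint. The stretch holds the midpoint by definition, which limits that distance. In split single promoters the median length was 185 bp (133 and 262.75). In 142 of the 266 split pairs both 5′ ends lay inside the stretch. The summits of the flanking peaks lay at medians of 198 and 202 bp inside the minus-strand and the plus-strand gene. The stronger flanking peak had a median of 1.47 times the signal of the weaker, and at least 2 times in 57 pairs. In split single promoters that median was 1.51, with the downstream peak the stronger in 782 of 1202. Split pairs had a lower signal than pairs with 1 peak over both 5′ ends, with medians of 8.43 and 11.6, and their highest peak was narrower, with 752.5 and 1573.5 bp; splitting shortens a peak by construction.

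A single peak spanned both 5′ ends at 292 pairs, or 42.2% of those with a peak. Counting any peaks, both 5′ ends were covered at 327 pairs, 1 of them at 164 and neither at 201, or 29.0%. Taken gene by gene, the own 5′ end was covered at 807 of 1365 genes of the pairs with a peak, or 59.1%. At single promoters with a peak it was covered in 64.0%. Both 1 kb flanks held a peak at 596 pairs, 1 flank only at 94, and at 2 pairs the peak lay in neither flank but between the 5′ ends.

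**Figure D3:**
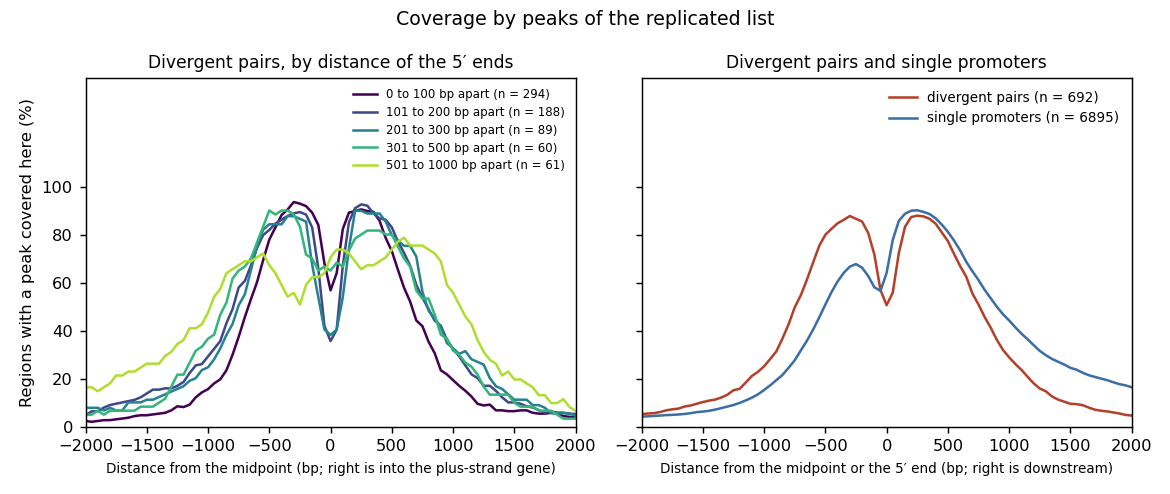
Share of regions with a peak that are covered by a replicated peak at each distance in bp. Left, divergent pairs about the midpoint in 5 bins of distance, with the plus-strand gene to the right. Right, all pairs (red) and single promoters (blue, about the 5′ end, downstream to the right). At the pairs 50.6% are covered at the midpoint, 87.7% at 300 bp to the left and 87.9% at 250 bp to the right. Left and right of a pair are set by genome strand, and each runs into a gene. The even mean profile therefore does not show how even a given pair is. Single promoters, laid out by direction of their gene, reach 90.1% at 250 bp downstream and 67.7% at 250 bp upstream.

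How the peaks were arranged varied with the distance between the 5′ ends. Of the 294 marked pairs at most 100 bp apart, 53.7% had 1 peak over both 5′ ends and 34.0% were split. Of the 188 at 101 to 200 bp, 32.4% had 1 such peak and 53.7% were split. At 201 to 300 bp these shares were 34.8% and 48.3% of 89 pairs, and of the 60 pairs at 301 to 500 bp 48.3% had 1 such peak and 15 pairs were split. Of the 61 widest marked pairs, 501 to 1000 bp apart, 21.3% had 1 peak over both ends and 11.5% were split. The midpoint was covered at 35.6% of the marked pairs 101 to 200 bp apart and at 70.5% of those over 500 bp. Only 51.5% of the pairs over 500 bp were CpG-rich, against 84.1% of all pairs. At these distances the CpG window about the midpoint lies mostly between the 5′ ends, so the shares are not of like sequence. Median signal was highest at 301 to 500 bp, with 12.2, against 8.70 at up to 100 bp, and over all pairs signal and distance had a Spearman rho of 0.0861.

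The summit of the highest peak lay on the minus-strand gene's side at 319 pairs, on the plus-strand gene's side at 308 and between the 5′ ends at 65, or 9.39%. The strands were thus almost even, which does not show how even the sides of a given pair are. Summits outside the 5′ ends lay at a median of 187 bp (quartiles 149 and 249) inside their gene. At single promoters 76.0% of summits lay downstream, at a median of 229 bp (166 and 398.25). Summits between the 5′ ends were found at 0 of 294 pairs up to 100 bp apart, at 6 of 188 pairs 101 to 200 bp apart, at 18 of 89 pairs 201 to 300 bp apart, at 26 of 60 pairs 301 to 500 bp apart and at 15 of 61 wider pairs; at short distances there is little room for one.

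**Figure D4:**
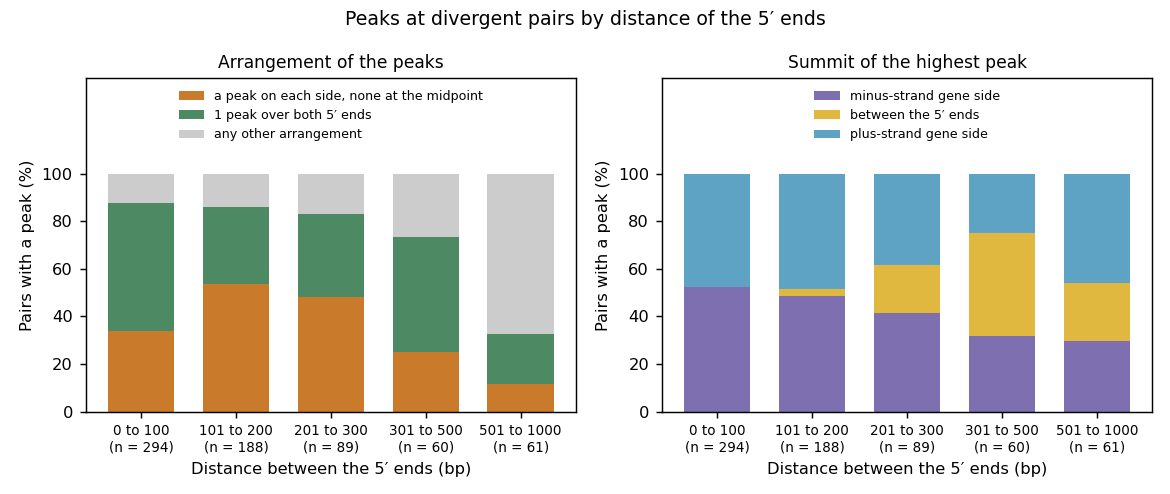
Divergent pairs with a peak, by distance between the 5′ ends in bp, as stacked shares in percent with the number of pairs under each bar. Left, pairs with a peak on each side and none at the midpoint, with 1 peak over both 5′ ends, or with any other arrangement; the split share is highest at 101 to 200 bp, with 53.7%. Right, the side of the highest summit; summits between the 5′ ends reach 43.3% at 301 to 500 bp and are absent up to 100 bp.

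Gene length gave an even split as well. The summit lay on the side of the longer gene in 315 of 627 pairs with an outside summit, or 50.2%. It lay on the side with more CpG in its outer 1 kb in 398 of 622 pairs, or 64.0%, with 5 ties. The pools placed the summit alike (minus side, between or plus side) in 567 of 672 pairs, or 84.4%, and on opposite genes in 90. Among the strongest of those 90, Hnrnpa2b1/Cbx3, an RNA-binding protein gene and a heterochromatin protein gene long studied as a divergent pair, had its summit on the Hnrnpa2b1 side in pool I with 25.6 and on the Cbx3 side in pool J with 17.4. B3galt6/Sdf4 likewise had it on the B3galt6 side in pool I and the Sdf4 side in pool J, with 20.3 and 13.8; its flanking peaks in the replicated list were close, 16.3 on the B3galt6 side and 15.3 on the Sdf4 side. Styxl1/Mdh2, with the mitochondrial malate dehydrogenase gene, had its summit on the Mdh2 side in pool I and the Styxl1 side in pool J.

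At some strong pairs the peaks reached into 1 gene only. At Brca1/Nbr1 the peak of signal 26.1, 660 bp wide at chr11:101552026-101552685, covered the Nbr1 5′ end, a second peak of 9.58 lay farther into Nbr1, and the 1 kb on the Brca1 side held no peak. The same arrangement stood in both pools, with 31.0 in pool I and 20.9 in pool J. Mastl/Yme1l1, a mitotic kinase gene and a mitochondrial protease gene, had a single peak of 20.7 that covered only the Yme1l1 5′ end. That peak began 2 bp short of the Mastl 5′ end and had its summit between the 5′ ends. Larp7/Zgrf1, with the gene of a 7SK RNA-binding protein, had 16.9 over the Larp7 end, and the Zgrf1 side held no peak. The next strongest pairs with a peak in 1 flank only, a class chosen after its values were seen, were Tom1l2/Drc3 (15.3, on the Tom1l2 side), Rsrc2/Kntc1 (15.3, on the Rsrc2 side), Tbc1d10c/Ppp1ca (14.9, on the Ppp1ca side), Mepce/Zcwpw1 (14.8, on the Mepce side) and 1110059G10Rik/Kif15 (14.0, on the 1110059G10Rik side). The peak of the last pair covered the midpoint and ended just short of the Kif15 5′ end.

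Unequal flanking peaks were the milder form. At Hs2st1/Selenof a peak of 8.73 stood on the Hs2st1 side and 1 of 25.6 on the Selenof side. Usmg5/Pdcd11, with a gene of an ATP synthase-associated protein, had 17.6 on the Usmg5 side and 4.52 on the Pdcd11 side. The largest imbalance among split pairs, looked up after the values were seen, was at Nubp2/Spsb3, with 2.00 on the Nubp2 side and 13.0 on the Spsb3 side. Sart3/Iscu, a splicing recycling factor gene and the gene of the iron-sulfur cluster scaffold, had 23.1 on the Sart3 side and 5.46 on the Iscu side.

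The widest peak of any pair reached far into 1 gene. At Mrps18b/Ppp1r10, a mitochondrial ribosomal protein gene and a protein phosphatase regulator gene, the peak was 5174 bp wide and extended 846 bp into Mrps18b and 4282 bp into Ppp1r10. It was 5323 bp wide in pool I, while pool J held a peak of 996 bp over the 5′ ends and another of 3275 bp within Ppp1r10. Asphd1/Sez6l2, with a neuronal membrane protein gene, had 4610 bp, and Lyzl4/Vipr1, with the receptor gene of vasoactive intestinal peptide, 4577 bp. Grik5/Zfp574, with a kainate receptor subunit gene, had 4068 bp. The highest peak of Asphd1/Sez6l2 was 4582 bp wide in pool I and 2863 bp in pool J. At Grik5/Zfp574 it was 4094 bp wide in pool I, while pool J held 2 peaks, the highest 2259 bp wide. Lyzl4/Vipr1 had 4677 bp in pool I and 4706 bp in pool J. The histone pairs Bola1/Hist2h2ab and Hist2h2ac/Hist2h2be shared 1 peak of 3633 bp, so it counts in both.

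**Figure D5:**
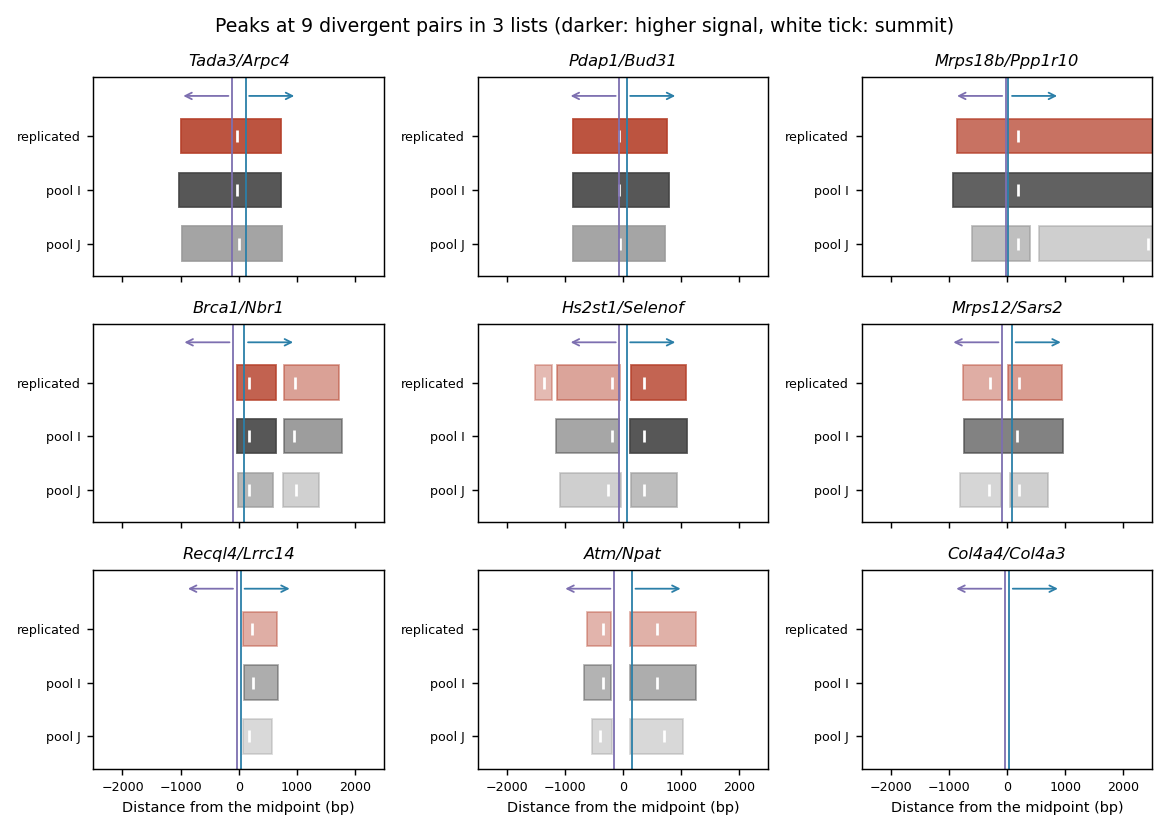
Peaks at 9 pairs in the replicated, pool I and pool J lists, in bp from the midpoint; vertical lines are the 5′ ends, arrows give the direction of each gene, darker boxes have higher signal and white ticks are summits. Tada3/Arpc4 and Pdap1/Bud31 have 1 peak over both 5′ ends in each list, Brca1/Nbr1 has peaks on the Nbr1 side only, Atm/Npat is split in each list, Mrps12/Sars2 is joined only in pool I, and Col4a4/Col4a3 has none; the Mrps18b/Ppp1r10 peaks run past the right edge.

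Of 35 pairs known from textbooks and reviews as divergent, 8 met the distance rule here, and 7 of them had a peak. Brca1/Nbr1 was the strongest. Mrps12/Sars2, a mitochondrial ribosomal protein gene and the mitochondrial seryl-tRNA synthetase gene, had 10.8 on the Sars2 side and 6.29 on the Mrps12 side. In pool I 1 peak of 1700 bp joined them, with 18.3, and in pool J they stood apart, the highest with 8.69. Pdcd10/Serpini1, with the neuroserpin gene, had 8.72. Recql4/Lrrc14, a DNA helicase gene and a leucine-rich repeat gene, had 5.92, Atm/Npat, the DNA damage kinase gene and a histone transcription factor gene, 5.39, and Mcm4/Prkdc, a replicative helicase subunit gene and the catalytic subunit gene of the DNA-dependent protein kinase, 3.91. Col4a4/Col4a3, which encode collagen chains of basement membranes such as those of the kidney, had no peak in any of the 3 lists within the region.

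Groups of genes were then read by lists made from gene symbols, and a list's pairs are those with at least 1 member gene. Each count below stands against 94.1% of all pairs with a peak, so a full count in a short list is close to that background. All 34 pairs with DNA repair and replication genes had a peak, with a median signal of 6.86, against 9.51 at all pairs. The single promoters of the same list had a similar median, 6.94, against 8.36 at all single promoters with a peak. In all, 33 of the list's 129 autosomal genes, or 25.6%, were in a pair. Rad17/Taf9, Pole3/4933430I17Rik and Brca1/Nbr1 were its strongest. For mitochondria, 18 of 18 pairs with mitochondrial ribosomal protein genes had a peak (median 10.6), 23 of 23 with oxidative phosphorylation genes (11.1) and 4 of 4 with import genes (9.36). Mrpl54/Apba3 led the first list with 24.8, and Atp5c1/Kin, with the gamma subunit gene of ATP synthase, led the second with 23.8.

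Genes of RNA and protein handling were marked as often. A peak was present at 28 of 28 pairs with splicing and RNA processing genes (median signal 10.3), 25 of 25 with transcription machinery genes (10.7), 7 of 7 with proteasome genes (11.3), 5 of 5 with aminoacyl-tRNA synthetase genes (10.8), 11 of 11 with chaperone genes (8.94), 18 of 18 with ubiquitin system genes (11.5), 16 of 16 with cell cycle genes (7.89) and 7 of 8 with cytosolic ribosomal protein genes (12.7). The exception among the last was Rnf151/Rps2, whose annotated Rps2 5′ end had no peak, while another annotated Rps2 start 1947 bp away had 7.96. Membrane traffic genes had a peak at 14 of 15 pairs, zinc finger genes at 17 of 18 and transmembrane protein genes named only as such at 22 of 23. Ddx5/Cep95, with an RNA helicase gene (22.7), Psma7/Ss18l1, with a proteasome subunit gene (21.8), and Dnajb4/Fubp1, with a chaperone gene (24.5), were among the strongest members.

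Some lists had few members in pairs. Of 456 synapse and neuronal signalling genes 6, or 1.32%, were in a pair, against 1450 of all 20807 coding genes, and all 6 pairs had a peak. Tmem126b/Dlg2, with a postsynaptic scaffold gene, had 18.7, and Nlgn2/Tmem256, with a gene of inhibitory synapses, 12.1; Prepl/Camkmt (18.4) entered by its symbol, as Camkmt encodes a calmodulin methyltransferase and not a kinase. Immune genes made 7 pairs, of which 3 had a peak. The strongest of these, Cd3eap/Ppp1r13l with 11.4, also entered by symbol, since Cd3eap encodes an RNA polymerase I subunit. Plgrkt/Cd274, with the gene of the checkpoint ligand PD-L1, had 4.57, and Il17rb/Chdh had 3.99. Keratin, collagen, serpin and cytochrome P450 genes made 4 pairs, 3 of them marked, the strongest being Polk/Col4a3bp (18.6), whose Col4a3bp encodes a ceramide transfer protein. The only pair of the olfactory and vomeronasal receptor list, Nt5c3/Vmn1r4, had 14.6 on the plus-strand side, and that list held 1457 genes.

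Histone genes, of which 27 of 67 or 40.3% lie in pairs, had a peak at 10 of 14 pairs (median 6.76). Hist1h2ae/Hist1h2bg had 10.7. Hist1h2bq/Hist1h2ao, Hist1h2ap/Hist1h2br and Hist1h2ah/Hist1h2bk had none, although their CpG ratios of 0.975, 0.966 and 0.942 were the highest of all unmarked pairs, and neither did Hist1h2ba/Hist1h2aa, which encode testis histones. Many histone genes have near-identical copies. How reads that match several places were counted is not stated in the sources used here. The absence of a peak at such genes is therefore uncertain.

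The 43 pairs with no peak were poorer in CpG, with a median ratio of 0.433 against 0.783 at the marked pairs, and 13 of them were CpG-rich. Their nearest replicated peak lay at a median of 13623 bp. At 12 of them a peak stood at another annotated start of 1 of the genes, as at Pcdh12/Rnf14, where an Rnf14 start 12098 bp away had 20.5, Slc27a5/Trim28, where a Trim28 start had 19.4, and Dgcr2/Tssk2, where a Dgcr2 start had 17.7; here the outermost annotated start is not the marked one. Besides the histone genes, the unmarked pairs of highest CpG ratio were Zfpl1/Cdca5 (0.885), Gm43720/Stag3 and Gpc2/Stag3 (0.816 and 0.814) and Tcf19/Cchcr1 (0.768). Stag3 encodes a meiotic cohesin subunit, and Cdca5 a cohesin regulator of dividing cells. Zfpl1/Cdca5 had a peak of 4.16 in pool I alone. Chosen after their values were seen, Smc1b/Ribc2, with a meiotic cohesin gene, Duox2/Duoxa2, with a thyroid oxidase and its maturation factor, and Klc3/Ckm, with the muscle creatine kinase gene, also had no peak. The unmarked pairs of lowest CpG ratio were Best1/Rab3il1, 4930430F08Rik/1700017N19Rik, Zfp558/Mbd3l1 and Il11/Tmem190, with 0.100 to 0.113.

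Motif letters were counted on both strands in the 300 bp from 250 bp before to 50 bp after each gene's 5′ end. The ETS and GABP core CCGGAA was in 41.3% of the 1450 windows of the pairs' genes, against 14.2% of single promoters, 25.3% of CpG-rich single promoters and 17.9% of all autosomal coding promoters. The YY1 letters ATGGCGG were in 13.0% of the windows of the pairs' genes, 3.58% of single, 7.07% of CpG-rich single and 4.83% of all promoters. The CREB core TGACGT was in 16.6%, 7.60%, 12.5% and 8.63% of the same groups in that order. The GC box GGGCGG of SP1 and KLF factors was in 69.0%, 39.1%, 73.6% and 43.7%, so the pairs were above all single promoters but not above the CpG-rich ones. The CCAAT box of NF-Y was in 43.5%, 38.4%, 36.6% and 38.6%. The NRF1 core GCATGCG (8.07%, 3.79%, 7.26% and 4.43%) and the E-box CACGTG (11.6%, 7.24%, 11.5% and 7.82%) were close to their shares at CpG-rich single promoters. Of the 8 motifs, the TATA box TATAAA alone was less frequent at the pairs than at single promoters, with 4.14% against 14.7% of single, 6.10% of CpG-rich single and 12.7% of all promoters. Windows of a pair's genes overlap where the 5′ ends are close, so such a match can be counted for both genes, and a match is not a bound site.

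Some motifs also differed between arrangements of the mark. In the 300 bp about the midpoint, CCAAT was in 54.9% of the 266 split pairs and in 30.1% of the 292 pairs with 1 peak over both 5′ ends, and GGGCGG in 80.8% and 64.4%. CCGGAA was near even, with 47.0% and 45.2%. The stretch printed above for Mrps12/Sars2, split in the replicated list, holds 4 CCAAT matches, all read on the minus strand as ATTGG, and 1 GC box. Hs2st1/Selenof, also split, holds 2 GC boxes, and Tada3/Arpc4, with 1 undivided peak, holds a single CCGGAA. At pairs with no peak CCGGAA was in 9.30% of 43 windows, against 43.4% of the 692 marked pairs, while CCAAT was in 53.5% and 43.6%. Col4a4/Col4a3 shows none of the 8 motifs between its 5′ ends. These groups also differed in other ways, with a median CpG ratio of 0.433 at pairs with no peak and 0.783 at marked pairs. Between split and spanned pairs the median CpG ratio was close, 0.804 and 0.797, but the median distance was 134.5 and 89.5 bp. The part of base composition and distance in the motif shares was not tested.

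Values on either side of the distance limit are given for completeness. Just inside it, Btf3l4/Txndc12 at 987 bp had a signal of 14.9 and Asphd1/Sez6l2 at 981 bp had 10.7. Just outside it, Gpr108/Trip10 at 1009 bp had 12.5 and Sgsm2/Tsr1 at 1011 bp had 13.2.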

How the data were processed

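H3K27ac peak lists of 4 libraries in 1 group were analysed: pool I and pool J, with 2 technical libraries each, numbered in accession order. Per the labels, the authors deposited a replicated and a pseudoreplicated list of both pools and a pseudoreplicated list of each pool, all on mm10; 63593 of the 72027 replicated peaks stand with the same place and signal in the pseudoreplicated list of both pools. Which aligner and peak caller were used, and how strain variants were handled, is not stated in the sources used here; reads of the CAST/EiJ copy may map less often to the reference. In each deposited list the signal is the authors' peak caller's value, with a normalization not stated, beside −log10 p and −log10 q values and a summit offset given by the authors. Signals of different lists were set side by side, correlated and counted as higher or lower only to describe the pools, since their normalization is not stated. No other column of sample values was left unused (0 columns).

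The annotation was the basic set of GENCODE vM21, and the sequence came from the RefSeq copy of GRCm38.p6, whose chromosome lengths hold all peaks. A region had a peak where at least 1 bp of a replicated peak overlapped it, and its value was that of the peak of highest signal. Shares carry exact Clopper-Pearson 95% intervals for counting error only. Named pairs were the 10 of highest signal, the 10 with the widest peak, 12 with no peak by CpG ratio, 8 with 1 end covered, 6 with the most uneven reach, 6 with opposite summits in the pools, textbook pairs, the 3 highest of each of 20 gene lists, 8 for sequence and those beside the distance limit. Some items that these rules name are not reported here. Other named pairs are marked as chosen after their values were seen. The members and lists were chosen with earlier results of these data known. All results are descriptions without a test, because the series has 1 group. The code was tested on simulated peaks of known place. Python 3.11.15, pandas 2.3.3, numpy 2.4.6, SciPy 1.17.1 and matplotlib 3.10.9 were used.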

Additional observations from a re-analysis of the deposited data

How the results depend on the processing

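The 9 results were recomputed under up to 12 other settings. No difference and no log2 ratio changed sign, while a plain share has no sign to change. Of 92 values 61 moved by less than the SD between the pools and 31 by more, and for these the cause was not tested. That SD rests on the pool I and pool J lists alone, which are themselves among the settings. It ran from 0.166 to 8.46 points over the plain shares, so the counts do not measure robustness. With the pools' own lists in place of the replicated list, the share of pairs with a peak was 91.7% to 93.7% and that of single promoters 44.8% to 47.8%, and their difference was 45.9 to 46.9 percentage points, against 46.1. In the same lists the difference among CpG-rich promoters was 10.1 to 10.8 points (9.48 in the replicated list), the log2 ratio of median signals 0.13 to 0.20 (0.19), the difference in median width -77.5 to -24 bp (-77), the share with 1 peak over both 5′ ends 37.1% to 49.1%, the share of summits between the 5′ ends 9.20% to 9.43%, and the difference in split shares 17.7 to 19.1 points (21.0). The width difference of -24 bp came from pool I, without pool J.

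A −log10 q of at least 5 gave a share of 92.2% for pairs and 44.3% for single promoters, differences of 47.9 points and, among CpG-rich promoters, 11.9 points, a log2 signal ratio of 0.13, a width difference of -133 bp and 9.14% of summits between the ends. With any coding gene outside the pairs as a single promoter, 53.9% of these had a peak, and the differences were 40.3 points, 8.56 points among CpG-rich promoters, 0.12 in log2 signal and -132 bp in width. A window of 500 bp gave a difference of 46.8 points, and so did counting a peak by its summit. Pairs at most 500 bp apart had 7.92% of summits between the ends and a split difference of 23.6 points. The remaining 3 settings were chosen after seeing the data, as was the split difference itself. The 5′ ends of basic transcripts gave a difference of 44.5 points, 11.9% of summits between the ends and a split difference of 18.3 points; 1 pair a locus gave 9.66% of such summits; and a centre of single promoters 64 bp upstream gave a split difference of 17.6 points. No paired analysis was possible because the 4 samples form 1 group and were deposited as lists per pool. The number of reads is unknown, so what depth limits in either pool list could not be assessed.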

Other observations

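Pairs outside the rule were looked at for their values only. On the X chromosome 20 divergent coding pairs met the same distance limit, and 15 of them, or 75% (exact 95% interval 50.9% to 91.3%), had a replicated peak, against 337 of 909 X-linked coding genes outside the pairs, or 37.1%. The median signal at the marked X-linked pairs was 6.36, and 3 of the 15, or 20%, were split. At the 337 marked X-linked genes outside the pairs the median signal was 6.26, close to that of the pairs. Of these genes 52, or 15.4%, were split at their own 5′ end. Gla/Hnrnph2 had the highest signal of the X-linked pairs, with 14.8. It joins the gene of the lysosomal enzyme alpha-galactosidase A to that of an RNA-binding protein. Pqbp1/Timm17b and Idh3g/Ssr4 had 9.52 and 9.34.

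Autosomal head-to-head pairs whose genes overlap at their 5′ ends, by 1 to 1000 bp, numbered 445. A peak was present at 414 of them, or 93.0% (90.3% to 95.2%). The highest peak of these had 11.0 as its median signal and 1388.5 bp as its median width, and 381 of the 414 were covered at the midpoint. Only 9, or 2.17%, were split, against 38.4% of the pairs whose 5′ ends do not overlap. The midpoint lies inside both genes at overlapping pairs and upstream of both at the others. These shares are therefore of unlike places.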
